A study of Mus musculus with 16 samples.

Results

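CD4+CD8+ double-positive thymocytes of NOD-AI4 mice labelled as lacking Nfkbid (NOD-AI4-Nfkbid-/-, 5 libraries) were compared with those of NOD-AI4 controls (6 libraries), which made up 11 of the 16 libraries of the series. Every mouse carried the AI4 T cell receptor, taken from an autoreactive CD8 T cell clone, on the diabetes-prone NOD background, and was 6 to 7 weeks old. Controls were 3 males and 3 females, and the knockout-labelled group was 4 males (replicates 2 to 5) and 1 female (replicate 1). The remaining group, NOD-AI4-60A mice that carry an Nfkbid transgene (5 libraries), was used here only to share the estimate of spread and for the contrast with the knockout-labelled libraries. The labels give neither the deleted allele nor the promoter of the transgene.

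Nfkbid encodes IκBNS, a nuclear IκB protein that binds NF-κB dimers on DNA and adjusts which of their target genes are transcribed. Double-positive thymocytes rearrange their T cell receptor alpha genes, test the receptor against self peptides, and then die by neglect, are deleted, or move on to a single-positive fate. Most are small and rest between divisions, while their immediate precursors are large, dividing blasts that make ribosomes, nucleotides and mitochondria at a high rate.

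Nfkbid RNA (ENSMUSG00000036931, GRCm38 chromosome 7, 30421732 to 30428746) did not differ detectably between the groups. It was at 28.9 to 36.9 CPM (counts scaled to a library of 1000000) in controls and at 34.3, 28.8, 28.7, 28.2 and 37.8 CPM in knockout-labelled replicates 1 to 5 (log2 fold change 0.07, SE 0.15, adjusted p = 0.78; exact two-sided permutation p = 0.608 over 462 permutations). The ranges overlap, and a gene-level count does not show which exons the reads cover, so these values do not check the labelled deletion. The libraries are called knockout-labelled below. Controls had 17955743 to 26586220 estimated counts per library and the knockout-labelled group had 21662210 to 35637813, with replicate 4 the deepest. Controls carry mouse identifiers of one series and the other mice those of another, so group and identifier series cannot be told apart in any value set against controls. Inside the second series, 174 genes (1.17% of those tested) were called between knockout-labelled and transgenic libraries. MHC class II transcripts were high in knockout-labelled replicates 1 to 3, in every transgenic library and, at a lower level, in control replicate 1. Their values are given beside the results they touch. Summed markers of B cells, dendritic cells and macrophages overlapped between knockout-labelled and control libraries, though single members differed, as given below.

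The promoters of 3 genes with recurrent changes are printed. They were chosen after their letters had been read, as examples of genes that rose or fell in all 5 knockout-labelled libraries. Each run holds the 250 bases before the RefSeq transcription start (GRCm38.p6), 5′ to 3′ on the gene's strand, and capitals mark the E-box CACGTG, the core bound by Myc family factors, or the cAMP response element TGACGTCA. Both motifs read the same on either strand and do not overlap here. Cdk4 (chr10:127063285-127063534, + strand) encodes a G1 cyclin-dependent kinase, Nop2 (chr6:125131633-125131882, + strand) an RNA methyltransferase of ribosome assembly, and Dusp1 (chr17:26508473-26508722, - strand) a phosphatase that switches off MAP kinases.
Cdk4: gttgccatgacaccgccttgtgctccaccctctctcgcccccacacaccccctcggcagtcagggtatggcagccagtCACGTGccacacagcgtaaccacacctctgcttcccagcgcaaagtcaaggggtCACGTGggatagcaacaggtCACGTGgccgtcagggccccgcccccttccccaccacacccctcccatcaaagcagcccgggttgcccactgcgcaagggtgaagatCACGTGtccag
Nop2: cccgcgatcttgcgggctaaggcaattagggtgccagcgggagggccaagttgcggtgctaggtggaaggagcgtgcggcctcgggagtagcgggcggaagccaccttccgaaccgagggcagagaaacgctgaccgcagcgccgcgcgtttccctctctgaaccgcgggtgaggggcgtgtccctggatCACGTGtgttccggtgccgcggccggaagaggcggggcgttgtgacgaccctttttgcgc
Dusp1: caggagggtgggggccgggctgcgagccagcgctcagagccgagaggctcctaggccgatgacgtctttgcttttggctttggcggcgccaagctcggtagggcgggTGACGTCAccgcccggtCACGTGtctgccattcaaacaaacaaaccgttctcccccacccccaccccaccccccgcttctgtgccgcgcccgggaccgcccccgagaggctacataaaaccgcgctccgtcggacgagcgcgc
Cdk4 rose (log2 fold change 0.40, SE 0.06) and has 4 E-boxes, which begin at -172, -118, -98 and -11 relative to the start. Nop2 rose (0.61, SE 0.10) and has 1, at -60. Dusp1 fell (-1.08, SE 0.21) and has a cAMP response element at -143 and an E-box at -126. In the 250 bases before the start, an E-box was found in 9.82% of 9303 tested protein-coding genes with a listed promoter, in 10.6% of the 945 that rose in all 5 libraries and in 11.3% of the 443 that fell in all 5. The cAMP response element was found in 3.07%, 3.60% and 4.29% of the same sets. With the 50 bases after the start included, an E-box was found in 11.7% of all tested. The shares were 14.1% of those that rose in all 5 libraries and 12.6% of those that fell in all 5. Among 52 ribosome assembly genes 23.1% had an E-box in this wider window, whereas 3.85% had one before the start. These are descriptions of letters, and binding was not measured.

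Changes were many and mostly small, and a large part recurred in every library. Of 14933 genes tested, 3942 (26.4%) were called at an adjusted p under 0.05, 2449 higher (16.4%) and 1493 lower (10.0%), with a median absolute log2 fold change of 0.33. A change is called recurrent here when it passed that test and all 5 knockout-labelled values lay above the highest, or all below the lowest, of the 6 controls. There were 1971 recurrent changes (13.2% of genes tested), 1243 higher (8.32%) and 728 lower (4.88%). Over all tested genes, called or not, 2107 (14.1%) had groups that did not overlap in this way. Among called genes, 1225 had 4 of 5 libraries beyond the controls, 463 had 3, and 41 had none. The median absolute log2 fold change was 0.34 in recurrent genes and 0.33 in called genes that were not. Only 71 recurrent changes passed 2-fold, 39 up and 32 down, and 121 of the 1971 remained when a gap of 1.2-fold between the nearest libraries was required. Once GC content and length were modelled, 1859 genes were called higher and 2101 lower, so that 46.9% of calls were higher in place of 62.1%. That share was 53.3% with DESeq2, 54.4% with RLE size factors, 53.9% with a stricter filter and 54.3% from the 11 compared libraries alone. With library totals alone it was 62.2%, without a filter 61.4% and without the sex term 61.2%. Of the 1971 recurrent genes, 1556 were still called with the GC content and length correction, and 1138 were recurrent under it as well. In another fit the compared libraries with high class II transcripts, knockout replicates 1 to 3 and control replicate 1, were left out. This left 7 compared libraries, and 1438 genes were called, 1046 higher and 392 lower. Among the 1971 recurrent genes, 983 were still called there. The 5 transgenic libraries, also high in these transcripts, stayed in the fit. The number called higher was 1486 in males alone and 1608 without control replicate 2.

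**Figure D1:**
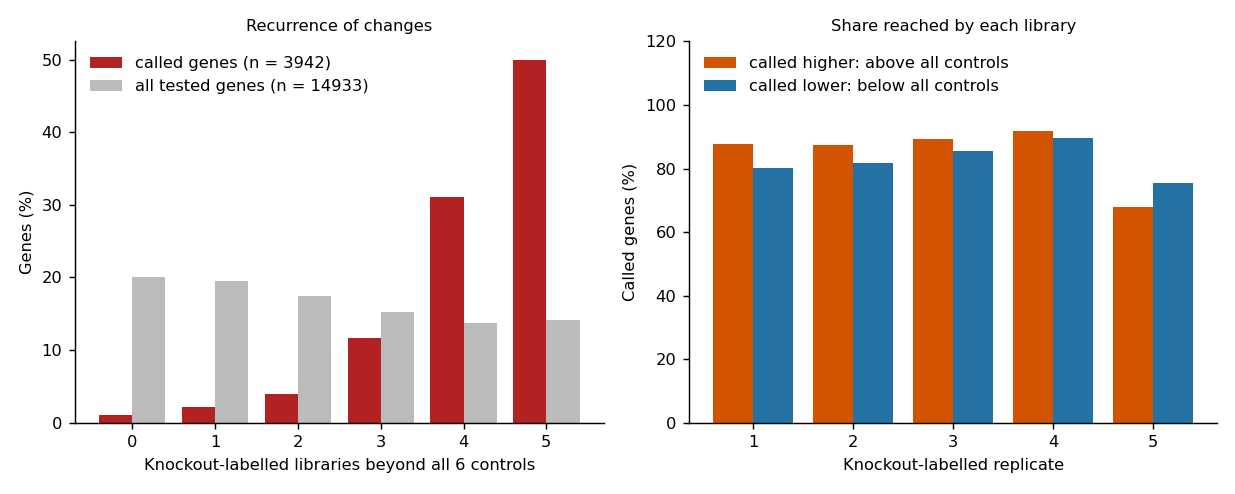
Left, share of genes (%) by the number of knockout-labelled libraries beyond all 6 controls in the direction of the fold change, for called genes (red) and all tested genes (grey); right, share of called genes (%) that each knockout-labelled library carried beyond all controls, for genes called higher (orange) and lower (blue). Called genes pile up at 5 libraries, 1971 of 3942, and replicate 5 reaches the fewest.

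The 5 libraries did not contribute alike. Replicate 4 lay above all controls in 91.8% of the genes called higher and below them in 89.6% of those called lower. Replicate 5 reached 67.9% and 75.6%, and it alone kept 618 called genes from being recurrent. Of the 1243 recurrent rises, replicate 4 was the highest library in 805 (64.8%) and replicate 5 was nearest to the controls in 577. Of the 728 recurrent falls, replicate 4 was the lowest library in 317 (43.5%). On the control side, 354 called genes overlapped only through control replicate 6 and 287 only through control replicate 1. Of the 1971 recurrent genes, 6 were also called between knockout-labelled and transgenic libraries: Erap1, Cd79b, Tnfrsf1b, Sp140, Rbm43 and Ms4a1, each lower in the knockout-labelled group. The other 1965 were not called there, which does not show that the groups are alike; both were set against the same controls.

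Recurrent changes were ranked among genes at a mean of at least 1 CPM, with established symbols, not in an earlier account of these data. The 12 largest rises of that ranking ran from Il9r to Srm, with log2 fold changes of 2.11 to 1.23. Il9r, the receptor chain for interleukin 9 (ENSMUSG00000020279, chromosome 11, 32187541 to 32200279), was at 1.52 to 3.26 CPM in controls (median 2.84) and at 6.92, 7.58, 8.07, 28.1 and 3.54 CPM in knockout-labelled replicates 1 to 5. All 5 lay above the controls, replicate 5 narrowly and replicate 4 far above the rest (log2 fold change 2.11, SE 0.47, adjusted p = 0.00548; 1.38 without replicate 4). Bcat1, which starts the breakdown of branched-chain amino acids, was at 1.37 to 3.79 CPM in controls (median 2.07) and at 7.42, 6.00, 5.59, 18.8 and 5.01 CPM (log2 fold change 1.96, SE 0.37). Its groups do not overlap, and replicate 4 is again the highest. Dctd, a deaminase that supplies the precursor of thymidylate, was at 0.405 to 0.995 CPM in controls and at 1.78, 2.09, 1.80, 4.35 and 1.09 CPM (log2 fold change 1.89, SE 0.33). Slc7a5, the large-neutral amino acid transporter, was at 9.14 to 14.9 CPM in controls and at 22.7, 28.4, 27.4, 55.7 and 19.4 CPM (log2 fold change 1.41, SE 0.23). Both genes rose in each knockout-labelled library, least in replicate 5 and most in replicate 4. Lap3, a leucine aminopeptidase that frees amino acids from peptides, rose by 1.38 (SE 0.22). Srm, spermidine synthase, rose by 1.23 (SE 0.17).

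Also among the 12 were Tubb3, a beta-tubulin best known from neurons (1.74, SE 0.25), Car12, a membrane carbonic anhydrase (1.52, SE 0.31), Acan, the aggrecan core protein of cartilage matrix (1.39, SE 0.30), Slc45a3 (1.38, SE 0.32) and Slc22a3, an organic cation transporter (1.34, SE 0.29). The calls of Slc45a3 and Slc22a3 were lost in males alone. Acan stood at 3.20 to 5.58 CPM in controls and at 7.09, 9.62, 10.1, 25.1 and 5.89 CPM in knockout-labelled replicates 1 to 5. Replicate 4 was thus the highest of the 5 for Acan too. Pgam1-ps2, a processed copy of the glycolytic mutase Pgam1, also rose (1.24, SE 0.23), but reads of the parent gene may have been shared with it in counting.

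Under the same limits, the rises with the smallest p-values were less steep and more even. Il12rb2, the signalling chain of the interleukin 12 receptor, was at 20.1 to 34.8 CPM in controls (median 26.9) and at 49.0, 44.0, 44.6, 47.5 and 39.6 CPM in knockout-labelled replicates 1 to 5 (log2 fold change 0.84, SE 0.09, adjusted p = 1.3e-04). H2-T3, a nonclassical class I gene that encodes the thymus leukaemia antigen, was at 44.0 to 53.4 CPM in controls and at 84.3, 125.5, 108.6, 108.3 and 78.6 CPM (log2 fold change 0.98, SE 0.11). Replicate 4 does not stand out in either gene. H2-T3 has close relatives in the class I region, so its count is uncertain. Dut, which keeps uracil out of DNA (0.73, SE 0.09), Selenoh, a nucleolar selenoprotein (0.73, SE 0.09), Snrpg (0.48, SE 0.06) and Lsm4 (0.42, SE 0.05), both of the rings that hold splicing RNAs, rose in the same way.

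**Figure D2:**
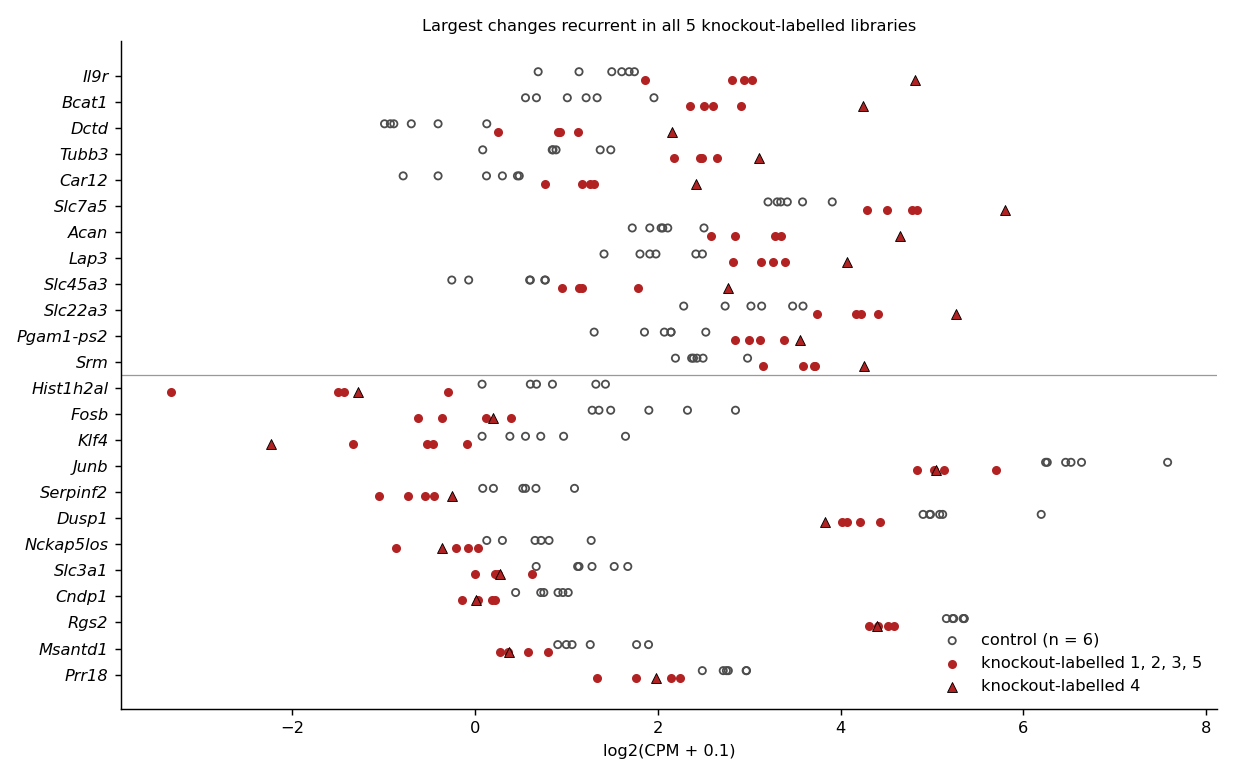
Level of 12 recurrent rises (above the line) and 12 recurrent falls (below it) in each library, as log2 of CPM plus 0.1. They are the largest among genes at a mean of at least 1 CPM, with established symbols, not in an earlier account of these data. Open circles are the 6 controls, red circles knockout-labelled replicates 1, 2, 3 and 5, and triangles replicate 4. In every row the red symbols lie to one side of the open circles, and for Il9r, Bcat1 and Acan the triangle lies well beyond the other red symbols.

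Lists of genes with a shared role were read against the background of 16.4% called higher and 10.0% lower. Genes that make the building blocks of nucleic acids rose. Of 30 nucleotide synthesis genes, 23 rose and 0 fell, with a median log2 fold change of 0.46 against 0.02 over all genes tested; 17 were recurrent. Cad, which carries out the opening steps of pyrimidine synthesis, was at 33.1 to 54.6 CPM in controls (median 41.3) and at 80.9, 75.7, 79.1, 117.7 and 64.0 CPM in knockout-labelled replicates 1 to 5, without overlap (log2 fold change 0.96, SE 0.15). Gart, a purine synthesis enzyme (0.61, SE 0.09), and Ctps, CTP synthase (0.59, SE 0.09), rose as well. Of 19 folate and methionine cycle genes, 9 rose, all of them recurrent, and 1 fell. Mthfd1, which interconverts folate-bound carbon units, was at 17.99 to 27.9 CPM in controls and at 44.7, 42.0, 44.3, 64.9 and 31.1 CPM (log2 fold change 1.05, SE 0.16). Gcsh, of the glycine cleavage system (0.88, SE 0.14), Shmt1, a serine hydroxymethyltransferase (0.83, SE 0.16), Odc1, the entry enzyme of polyamine synthesis (0.72, SE 0.15), and Mthfd2 (0.65, SE 0.15) rose too. The gene that fell, Mat2b, a regulator of methionine adenosyltransferase (-0.17, SE 0.06, adjusted p = 0.0492), lost its call without any 1 of 7 libraries (control replicates 1 to 4, knockout replicates 1, 3 and 4; adjusted p 0.0592 to 0.126).

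Nutrient transporters moved less as a list: 7 of 24 rose and 1 fell, with a median of 0.09. The number called higher was 3 without control replicate 2, 4 without knockout replicate 4 and 3 in males alone. Beside Slc7a5, the arginine and lysine transporter Slc7a1 (0.76, SE 0.11) and the purine base transporter Slc43a3 (0.57, SE 0.11) rose in all 5 libraries. Slc38a9, the lysosomal arginine sensor, fell (-0.33, SE 0.08) without recurring.

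Genes of protein synthesis rose across several steps. Of 20 cytosolic tRNA synthetases, which load amino acids onto tRNA, 16 rose and 0 fell (median 0.28), 12 of them recurrent. Vars was at 27.4 to 35.5 CPM in controls (median 31.3) and at 52.0, 50.7, 54.3, 73.3 and 46.6 CPM in knockout-labelled replicates 1 to 5 (log2 fold change 0.80, SE 0.10), and Rars (0.44, SE 0.08) and Wars (0.31, SE 0.05) followed with smaller rises. Of 60 ribosome assembly genes, 47 rose and 0 fell (median 0.31), 27 of them recurrent. Rrp12 rose most (0.82, SE 0.14), at 6.95 to 10.7 CPM in controls and 15.9, 15.4, 14.2, 20.4 and 11.7 CPM. Grwd1, which brings ribosomal protein to the assembling large subunit, rose by 0.67 (SE 0.10), the nucleolar protein Lyar by 0.66 (SE 0.10) and the small-subunit assembly factor Tsr1 by 0.58 (SE 0.09). Of 44 translation factors, 24 rose, among them Eif5a (0.49, SE 0.09) and the eIF3 subunit Eif3k (0.25, SE 0.04). The 1 that fell was Eif4a2, an RNA helicase linked to repression through microRNAs, at 441.6 to 496.9 CPM in controls and 376.1, 368.9, 373.8, 344.6 and 346.0 CPM (log2 fold change -0.37, SE 0.06). It fell in each library by a like amount.

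Genes that fold and clear proteins rose by smaller steps. Of 34 proteasome genes 24 rose and 0 fell (median 0.21), 21 of them recurrent, such as Psmb5 (0.35, SE 0.07), Psmb2 (0.33, SE 0.06), Psmd7 (0.31, SE 0.06) and Psmd13 (0.28, SE 0.05). Of 14 genes of the chaperonin that folds actin and tubulin and of its helper prefoldin, 8 rose and 0 fell, with Cct5 at 0.36 (SE 0.09), Cct7 at 0.32 (SE 0.06) and Pfdn1 at 0.30 (SE 0.06). With the GC content and length correction, 11 proteasome and 3 chaperonin genes were called higher, against 39 of the ribosome assembly, 22 of the nucleotide synthesis and 13 of the tRNA synthetase genes.

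Nuclear genes of the mitochondrion rose while those encoded in it were not called. Of 78 mitochondrial ribosome genes, 53 rose and 0 fell (median 0.25), 35 of them recurrent; without knockout replicate 4, 33 were called higher. Mrpl54 was at 13.7 to 15.3 CPM in controls and at 19.3, 19.3, 19.6, 22.9 and 19.8 CPM in knockout-labelled replicates 1 to 5 (log2 fold change 0.49, SE 0.07), well apart from the controls in every library. Mrpl52 (0.46, SE 0.07) and Mrpl28 (0.39, SE 0.06) rose likewise. Of 38 import and folding genes 23 rose, with C1qbp, a matrix protein needed for mitochondrial translation (0.71, SE 0.11), Hspa9, the matrix Hsp70 (0.51, SE 0.09), and the small import chaperone Timm8b (0.35, SE 0.06). Of 24 TCA cycle genes 13 rose, among them Mdh1 (0.33, SE 0.05), Mdh2 (0.27, SE 0.05), Idh3g (0.25, SE 0.04) and the citrate synthase Cs (0.18, SE 0.04). Of 23 fatty acid oxidation genes 8 rose, such as Decr1 (0.64, SE 0.12), Acsl5 (0.63, SE 0.09) and both subunits of the electron transfer flavoprotein, Etfb (0.47, SE 0.07) and Etfa (0.37, SE 0.06). Acadm, the medium-chain dehydrogenase, fell (-0.20, SE 0.06). Of the 13 mitochondrially encoded genes, 0 were called in either direction (median -0.02). With the GC content and length correction, 33 mitochondrial ribosome genes were called higher and 1 lower.

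Of 32 redox genes 17 rose and 0 fell, including Gstp1 (0.38, SE 0.07), Sod1 (0.34, SE 0.07), G6pdx, the entry to the pentose phosphate pathway (0.32, SE 0.06), and the mitochondrial peroxiredoxin Prdx3 (0.30, SE 0.05). Corrected for GC content and length, 11 were called higher and 1 lower.

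Transport between nucleus and cytoplasm and DNA repair also rose. Of 42 nuclear transport genes 25 rose and 0 fell, with the importin Kpna2 (0.82, SE 0.13), the GTPase Ran that powers transport (0.59, SE 0.09) and the pore proteins Nup93 (0.51, SE 0.06) and Nup133 (0.48, SE 0.07). Of 46 DNA repair genes 26 rose, 11 of them recurrent. Apex1, the abasic-site endonuclease, was at 10.5 to 18.9 CPM in controls and at 24.7, 24.4, 24.0, 39.7 and 20.5 CPM in knockout-labelled replicates 1 to 5 (log2 fold change 0.88, SE 0.17), with replicate 4 set apart. Fancd2 (0.74, SE 0.12) and the histone variant H2afx (0.74, SE 0.11) rose. Prkdc, the kinase of end joining, fell (-0.18, SE 0.06), a call that was lost without control replicate 3 (-0.15, adjusted p = 0.0711). Among cell-cycle regulators 8 of 30 rose, with Cdk4 at 127.6 to 149.1 CPM in controls and 174.9, 178.9, 177.4, 202.8 and 166.5 CPM in knockout-labelled replicates, and 4 fell. The inhibitor Cdkn1b, at 278.9 to 286.4 CPM in controls, was at 246.2, 255.9, 242.2, 221.0 and 257.1 CPM (log2 fold change -0.20, SE 0.04). Its call was lost without the libraries high in class II transcripts (-0.22, adjusted p = 0.0707).

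**Figure D3:**
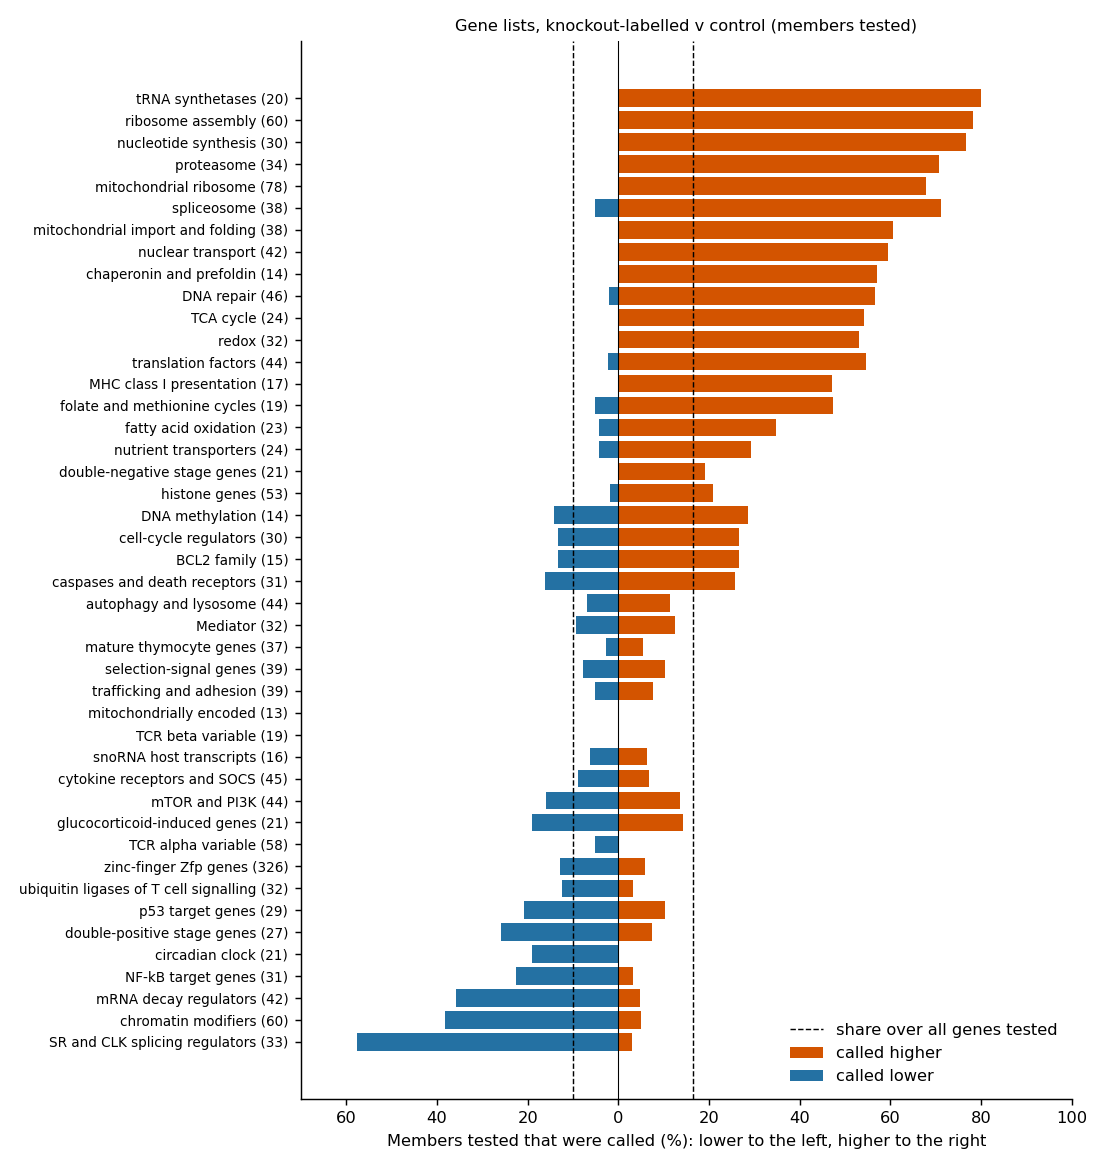
Share of tested members (%) of the gene lists called higher (orange, right) or lower (blue, left) in knockout-labelled v control libraries, with the number of members tested in brackets; dashed lines mark the share over all genes tested, 16.4% higher and 10.0% lower. Lists of synthesis, mitochondria, proteasome and spliceosome extend right, and splicing regulators, chromatin modifiers and mRNA decay extend left.

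Within RNA processing the core machine and its regulators moved in opposite directions. Of 38 core spliceosome genes 27 rose, 18 of them recurrent, with Lsm4, Snrpg and the tri-snRNP factor Prpf31 (0.39, SE 0.05) among the smallest p-values. The 2 that fell were Snrnp70, of the U1 particle (-0.21, SE 0.05), and Sf3b1, of the U2 particle (-0.17, SE 0.05), whose call was lost without control replicate 3 (-0.15, adjusted p = 0.0659). Of 33 SR proteins, CLK kinases and other splicing regulators, 19 fell and 1 rose (median -0.17), and 14 of the falls were recurrent. Clk4, a kinase that phosphorylates SR proteins, was at 142.4 to 159.4 CPM in controls (median 148.7) and at 131.3, 110.3, 113.9, 116.2 and 126.3 CPM in knockout-labelled replicates 1 to 5 (log2 fold change -0.30, SE 0.06). Rbm5 (-0.28, SE 0.04), Rbm39 (-0.26, SE 0.05), the helicase Ddx5 (-0.26, SE 0.04), the speckle protein Son (-0.25, SE 0.05) and Rbm6 (-0.21, SE 0.03) fell in all 5 libraries too. The 1 that rose was Srsf2 (0.28, SE 0.06).

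Regulators of chromatin and of mRNA decay fell by small and even amounts. Of 60 chromatin modifiers 23 fell and 3 rose (median -0.11), and 10 of the falls were recurrent. Among them were Kmt2c, a histone H3K4 methyltransferase (-0.37, SE 0.06), Nsd3, an H3K36 methyltransferase (-0.31, SE 0.04), and the bromodomain protein Brwd1 (-0.29, SE 0.04). Smarcc1 (0.26, SE 0.07), Kat2a (0.28, SE 0.07) and Nsd2 (0.30, SE 0.09) rose. Among males neither Kat2a (adjusted p = 0.0879) nor Smarcc1 (adjusted p = 0.0688) was called. Kat2a also missed the threshold when knockout replicate 1 (adjusted p = 0.0606) or 4 (0.0575) was left out. Of 42 mRNA decay regulators 15 fell and 2 rose, with 9 recurrent falls. Smg1, the kinase of nonsense-mediated decay (ENSMUSG00000030655, chromosome 7, 118131308 to 118243670), was at 1713 to 1895 CPM in controls (median 1782) and at 1405, 1278, 1288, 1286 and 1426 CPM in knockout-labelled replicates (log2 fold change -0.43, SE 0.05, adjusted p = 1.8e-04). Ago3, a microRNA effector (-0.39, SE 0.04), Pan3, of a deadenylase (-0.38, SE 0.05), and Cnot7, of another (-0.33, SE 0.06), fell as well. Drosha, which cuts microRNA precursors (0.34, SE 0.08), and the nuclear exonuclease Xrn2 (0.16, SE 0.04) rose, and Xrn2 lost its call without knockout replicate 2 (0.11, adjusted p = 0.0599). Of 326 genes named Zfp, most of them zinc-finger repressors, 42 fell (12.9%) and 19 rose (5.83%). Zfp451 (-0.45, SE 0.07) and Zfp799 (-0.32, SE 0.06) fell and Zfp239 (1.00, SE 0.16) rose in all 5 libraries.

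Among the ranked genes, the falls with the smallest p-values after Rgs2, described below, included Smg1 and Ago3, given above, and Mdm4. Mdm4, an inhibitor of p53, was at 702.2 to 758.4 CPM in controls (median 746.6) and at 540.0, 519.3, 533.4, 501.7 and 544.0 CPM in knockout-labelled replicates 1 to 5 (log2 fold change -0.48, SE 0.05, adjusted p = 1.3e-04). Its 2 ranges were narrow and far apart. Ubn2, of a histone chaperone complex (-0.46, SE 0.05), Zc3h7a (-0.40, SE 0.04) and Ino80d, of a chromatin remodeller (-0.37, SE 0.04), fell likewise.

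Calls varied with transcript length, GC content and gene type over all genes tested. With protein-coding genes split into 5 equal groups by their longest transcript, the share called higher was 32.4%, 21.9%, 18.4%, 13.8% and 9.30% from the shortest (201 to 1985 bases) to the longest (5241 to 123179 bases), and the share called lower was 3.34%, 5.58%, 7.78%, 12.8% and 17.8%. In the equal group with the lowest GC content, 9.47% were higher and 16.1% lower. Shares also differed by gene type. Of 630 loci of the TEC type, transcribed loci without an established gene model, 148 were lower and 7 higher (median log2 fold change -0.31). Of 88 sense intronic genes 18 were lower and 0 higher, and of 537 antisense genes 72 were lower and 9 higher. Processed pseudogenes were called higher in 88 of 609 (14.4%, against 16.4% over all genes tested) and lower in 24 (3.94%, against 10.0%). The part of these properties in the results above was not tested beyond the correction. Under it, 15 splicing regulators, 28 chromatin modifiers and 17 mRNA decay genes were called lower. Over all 14933 genes, 2101 were called lower with the correction and 1493 without it. The median was -0.09 in place of -0.17 for splicing regulators, -0.12 in place of -0.11 for chromatin modifiers and -0.11 in both fits for mRNA decay.

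**Figure D4:**
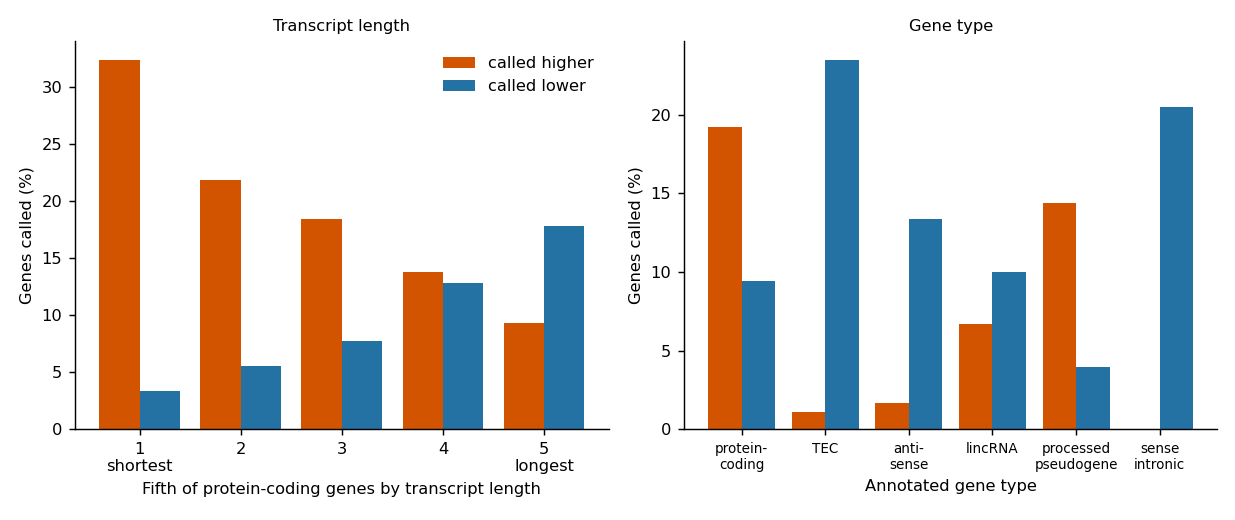
Share of genes called higher (orange) or lower (blue) in knockout-labelled v control libraries (%), left by 5 equal groups of protein-coding genes ordered by transcript length and right by annotated gene type. The share called higher falls from 32.4% to 9.30% with length while the share called lower rises from 3.34% to 17.8%, and TEC and sense intronic genes are called lower in 23.5% and 20.5%.

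Among the largest falls in the ranking of recurrent changes were immediate-early genes, which cells switch on within minutes of a signal or of handling. Fosb, an AP-1 subunit (ENSMUSG00000003545, chromosome 7, 19302696 to 19310051), was at 2.34 to 7.12 CPM in controls (median 3.17) and at 0.552, 0.681, 0.992, 1.05 and 1.22 CPM in knockout-labelled replicates 1 to 5 (log2 fold change -1.97, SE 0.33, adjusted p = 8.7e-04). Its partner Junb was at 75.6 to 190.9 CPM in controls (median 89.9) and at 34.9, 32.3, 28.5, 33.0 and 52.1 CPM (log2 fold change -1.39, SE 0.23). Dusp1, the phosphatase shown above, was at 29.8 to 73.2 CPM in controls (median 32.7) and at 18.5, 16.1, 16.7, 14.2 and 21.6 CPM. Control replicate 6 was far above the other controls in Junb and Dusp1, and the next highest controls still lay above every knockout-labelled library. Klf4, a factor of quiescence, was at 0.957 to 3.04 CPM in controls and at 0.297, 0.596, 0.631, 0.114 and 0.842 CPM (log2 fold change -1.78, SE 0.42). The calls of Junb, Dusp1 and Klf4 were lost without the libraries high in class II transcripts. That fit had 2 knockout-labelled libraries against 5 controls. Rgs2, which shortens signalling through G protein-coupled receptors (ENSMUSG00000026360, chromosome 1, 143999338 to 144004161), had the smallest p of the genes named here. It was at 35.6 to 40.8 CPM in controls and at 22.9, 21.1, 19.8, 21.0 and 24.0 CPM, tight in both groups (log2 fold change -0.82, SE 0.06, adjusted p = 3.4e-06).

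Not every gene of this kind fell. Egr1 and Nr4a1, induced by T cell receptor signals, were not called. Egr1 was at 184.2 to 233.2 CPM in controls and 178.8 to 250.7 CPM in the knockout-labelled group (log2 fold change 0.03, SE 0.08), and Nr4a1 at 60.6 to 94.6 and 62.0 to 91.8 CPM (-0.01, SE 0.13). Cd69, an early activation marker, had a log2 fold change of -0.21 (SE 0.11, adjusted p = 0.181). The heat-shock genes Hspa1b and Hspa1a fell by 2.94 (SE 0.94) and 2.55 (SE 0.88), with wide spread inside both groups. Hspa1b was at 67.5, 119.0 and 116.6 CPM in the male controls, at 5.37, 13.1 and 0.717 CPM in the female controls, and at 1.44, 0.511, 3.02, 9.26 and 26.5 CPM in knockout-labelled replicates 1 to 5. Leaving out control replicate 1, 2, 3 or 5, or knockout replicate 1, 2, 3 or 4, ended both calls (adjusted p 0.0514 to 0.0816 for Hspa1b and 0.0510 to 0.116 for Hspa1a). The 2 genes are near copies of each other, so their counts may be shared.

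Other recurrent falls were of low-level genes: Serpinf2, an inhibitor of plasmin (-1.12, SE 0.23), the antisense transcript Nckap5los (-0.95, SE 0.23), the transporter subunit Slc3a1 (-0.90, SE 0.19), the dipeptidase Cndp1 (-0.89, SE 0.22), Msantd1 (-0.82, SE 0.21) and Prr18 (-0.81, SE 0.15). Of these, only Prr18 kept its call without the libraries high in class II transcripts. Among the ranked recurrent falls, the largest fold change was that of the histone pseudogene Hist1h2al, which fell by 2.66 (SE 0.84). It stood at 0.957 to 2.59 CPM in controls and at 0 to 0.716 CPM in the knockout-labelled group. Its call was lost without control replicate 2 or any 1 of knockout replicates 1 to 4 (adjusted p 0.0531 to 0.0824), and its sequence is shared with other histone genes. Of 53 histone genes 11 rose and 1, Hist1h2al, fell. The number called higher was 5 without control replicate 2, 6 without knockout replicate 1, 7 without knockout replicate 4, 17 without control replicate 3 and 19 without knockout replicate 5.

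Genes of cell death moved in both directions. Of 15 BCL2 family genes 4 rose and 2 fell (median -0.12). With the GC content and length correction 1 was called higher and 3 lower. The pore-forming Bax (0.27, SE 0.07) and Bak1 (0.17, SE 0.05) and the BH3-only Bad (0.26, SE 0.06) rose in all 5 libraries, and the BH3-only Bid (0.42, SE 0.10) rose in the fit but not in every library. The calls of Bax, Bak1 and Bad were lost with the GC content and length correction, and that of Bid was kept. The survival gene Mcl1 fell (-0.18, SE 0.05): it was at 430.4 to 548.3 CPM in controls and at 453.2, 411.6, 369.0, 380.2 and 402.9 CPM in knockout-labelled replicates, so replicate 1 lay among the controls. Bmf, a BH3-only gene, fell (-0.41, SE 0.14), a call that ended when any of 7 libraries was left out (knockout replicate 1, 3, 4 or 5 or control replicate 1, 2 or 4; adjusted p 0.0524 to 0.117). Of 31 caspase and death receptor genes 8 rose and 5 fell, and without control replicate 2 the number called higher was 4. Fadd, the adaptor of death receptors, was at 11.03 to 14.2 CPM in controls and at 17.0, 17.7, 20.8, 19.7 and 17.9 CPM (log2 fold change 0.50, SE 0.08), while the receptor Fas (-0.28, SE 0.06) and the inhibitor Cflar (-0.24, SE 0.05) fell in all 5. Birc5, which is also a mitotic gene, rose (0.67, SE 0.13).

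Targets of p53 and of the glucocorticoid receptor were mixed. Of 29 p53 targets 6 fell (20.7%) and 3 rose (10.3%), against 10.0% and 16.4% over all genes tested. With the GC content and length correction 8 fell and 1 rose. Trp53inp1 was at 1174 to 1350 CPM in controls and at 921.4, 1085, 858.1, 861.1 and 937.9 CPM in knockout-labelled replicates (log2 fold change -0.41, SE 0.09), and Mdm2, the ligase that degrades p53, fell with Mdm4 (-0.22, SE 0.04). Gtse1, a mitotic gene that restrains p53, rose (0.69, SE 0.13). Of 21 glucocorticoid-induced genes 3 rose (14.3%) and 4 fell (19%). Fkbp5, a sensitive readout of the receptor in many tissues, was at 159.2 to 235.0 CPM in controls (median 193.2) and at 315.0, 279.2, 258.8, 286.2 and 249.6 CPM (log2 fold change 0.52, SE 0.11), above every control, while Dusp1 and Rgs2, in the same list, fell.

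Of 39 selection-signal genes 4 rose and 3 fell, near or under the background. Dusp4, a MAP kinase phosphatase, rose from 32.8 to 45.9 CPM in controls to 56.9, 50.3, 52.8, 59.7 and 52.9 CPM in knockout-labelled replicates (log2 fold change 0.48, SE 0.08). Pdcd1, which encodes PD-1, rose in all 5 (0.65, SE 0.16), with replicate 4 at 32.2 CPM and the others at 18.6 to 19.5 CPM, against 11.3 to 17.0 CPM in controls. Its call was lost in males alone. Ikzf2, which encodes Helios, was at 474.8 to 586.4 CPM in controls and at 368.2, 361.9, 370.5, 468.4 and 418.7 CPM (log2 fold change -0.38, SE 0.09), and its call was lost with the GC content and length correction and without the libraries high in class II transcripts (-0.21, adjusted p = 0.292). Gadd45b, a gene of stress and NF-κB signals, fell (-0.72, SE 0.16), a call also lost without those libraries (-0.39, adjusted p = 0.225). Of 31 NF-κB target genes 7 fell (22.6%) and 1 rose (3.23%), and 3 of the falls were recurrent (Tnfaip3, Fas and Cflar). Without the libraries high in class II transcripts 1 of the 31 was called lower and 0 higher. Bcl3, a nuclear IκB relative of Nfkbid, was at 1.07 to 2.26 CPM in controls and at 0.552, 0.298, 0.451, 1.42 and 0.716 CPM in knockout-labelled replicates. It fell (adjusted p = 0.0468), a call that ended when any of 9 libraries was left out (all but control replicate 5 and knockout replicate 4; adjusted p 0.0602 to 0.137). The 1 that rose was Cd83, an activation marker also made by dendritic and B cells, and it stood at 0 to 0.222 CPM in controls, at 0.284 to 1.15 CPM in knockout-labelled replicates 1 to 4 and at 0.126 CPM in replicate 5. The call of Cd83 (log2 fold change 2.44, adjusted p = 0.00995) was lost in males alone (1.79, adjusted p = 0.102) and without the libraries high in class II transcripts (1.17, adjusted p = 0.409).

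The stage of the sorted cells was read from thymocyte markers. The summed level of 27 double-positive stage genes was 15999 to 20145 CPM in controls and 15880 to 17785 CPM in knockout-labelled libraries, so the ranges overlap. Of these genes 7 fell and 2 rose (11 and 1 with the GC content and length correction), and 1 of the falls was recurrent (Ccr9, a homing receptor; -0.24, SE 0.07). Control replicate 6 was the lowest control for Rag1 (492.5 CPM against 842.1 to 1157 in the other controls) and Dntt (496.8 against 729.9 to 840.0). Rag1, which cuts receptor genes, was at 513.8, 1015, 809.1, 1046 and 586.0 CPM in knockout-labelled replicates and was not called (-0.38, SE 0.22, adjusted p = 0.234), nor was Dntt (-0.10, SE 0.12). Of 37 mature thymocyte genes 2 rose and 1 fell, and of 21 double-negative stage genes 4 rose and 0 fell, among them Lyl1 (0.85, SE 0.25) and Kit (0.86, SE 0.31). The call of Lyl1 was lost without control replicate 2 or knockout replicate 1 (adjusted p 0.0582 and 0.0635), and that of Kit without any of 8 libraries (knockout replicates 2 to 4, or control replicates other than 5; adjusted p 0.0565 to 0.145). The number of double-negative stage genes called higher was 0 without control replicate 2, and that of double-positive stage genes called lower was 12 without control replicate 6. Mature thymocyte genes called higher numbered 9 without control replicate 6. Of 58 receptor alpha variable segments 3 fell (8 without control replicate 6), and of 19 beta segments 0 were called.

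The autophagy, cytokine receptor and Mediator lists lay near or under the background in both directions. Of 44 autophagy and lysosome genes 5 rose and 3 fell, of 45 cytokine receptor and SOCS genes 3 rose and 4 fell, and of 32 Mediator genes 4 rose and 3 fell. Of 44 mTOR and PI3K genes 6 rose (13.6%) and 7 fell (15.9%), and without control replicate 2 the counts were 3 and 3. Of 14 DNA methylation genes 4 rose (28.6%) and 2 fell (14.3%), with the maintenance methyltransferase Dnmt1 up in all 5 libraries (0.43, SE 0.08). Of 21 circadian clock genes 4 fell and 0 rose, none of them in every library, and 1 was called lower without knockout replicate 1. Ciart (-0.69, SE 0.24) and Clock (-0.18, SE 0.06) were among these, and each lost its call without any of 4 libraries (control replicates 3, 4 and 5 and knockout replicate 1 for Ciart; control replicates 1, 3 and 4 and knockout replicate 1 for Clock).

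Of 17 MHC class I presentation genes 8 rose and 0 fell (47.1% higher), and 13 were called between knockout-labelled and transgenic libraries. The count of rises rested on several libraries: it was 2 without knockout replicate 1 or 4, 4 without knockout replicate 5, 5 without knockout replicate 2 or 3 or control replicate 3 or 5, and 2 in males alone. Psmb9, an immunoproteasome subunit, was at 25.5 to 33.5 CPM in controls and at 39.6, 37.7, 34.3, 34.7 and 33.0 CPM in knockout-labelled replicates (log2 fold change 0.34, SE 0.07), with a mean of 63.2 CPM in transgenic libraries. Erap1, which trims peptides for class I molecules, rose in all 5 (0.18, SE 0.05) and was lower than in transgenic libraries (log2 difference -0.31, adjusted p = 0.00503). Its rise against controls was not called without knockout replicate 1, 2 or 4 (adjusted p 0.0595 to 0.0777). The chaperone Calr rose by 0.36 (SE 0.07) in all 5. With the GC content and length correction 4 of the 17 were called higher and 1 lower.

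Some of the largest called changes did not recur: 1 or a few libraries stood far above the rest. Wdfy4, a gene of dendritic and B cells needed for cross-presentation, stood at 7.89, 9.37 and 11.7 CPM in the first 3 knockout-labelled replicates and only 0.398 and 0.463 CPM in the other two, against 0.214 to 1.99 CPM in controls (log2 fold change 2.89, SE 0.82). Mpeg1, a pore-forming protein of macrophages and B cells, was at 11.03, 16.5 and 15.2 CPM in the same 3 and at 0.568 and 0.631 CPM in the others (2.34, SE 0.78). H2-Eb1, a class II chain, was at 12.4, 14.1 and 15.7 CPM and at 0.824 and 1.43 CPM (2.70, SE 0.79). The 3 genes thus split the group in 1 way, and once those 3 libraries and control replicate 1 were left out, the fold changes (log2) of Wdfy4, Mpeg1 and H2-Eb1 were -0.32, -1.21 and 0.35. Leaving out a single library also ended calls: Wdfy4 without knockout replicate 1 or 3 (adjusted p 0.0532 and 0.0659), H2-Eb1 without control replicate 2 or 3 or knockout replicate 1, 2 or 3 (0.0522 to 0.0836), and Mpeg1 without any 1 of control replicates 2 to 6 or knockout replicates 1 to 3 (0.0530 to 0.122).

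The fit without knockout replicates 1 to 3 and control replicate 1, high in class II transcripts, had 2 knockout-labelled libraries against 5 controls. The transgenic libraries stayed in it, and the counts of most lists were lower. Over all genes, 1046 of 15522 tested were called higher and 392 lower, against 2449 and 1493 of 14933 in the main fit. Called higher then were 31 ribosome assembly, 28 mitochondrial ribosome, 15 nucleotide synthesis, 14 tRNA synthetase, 16 translation factor and 15 mitochondrial import genes. The counts were 12 for the proteasome, 16 for the spliceosome, 12 for nuclear transport, 9 for DNA repair, 8 each for redox and the TCA cycle and 5 for the chaperonin. Fatty acid oxidation had 3, nutrient transporters 4, MHC class I 2, BCL2 family, cell-cycle and histone genes 1 each. Called lower were 9 chromatin modifiers, 8 splicing regulators, 7 mRNA decay genes, 8 Zfp genes, 3 p53 targets and 1 double-positive stage gene. Of the 177 called genes followed one by one, 59 were no longer called in this fit and 39 were not in males alone. Among the 59 were Kpna2, Prdx3, Decr1, Clk4, Srsf2, Snrnp70, Sf3b1, Cnot7, Xrn2, Smarcc1, Kat2a, Mat2b and Acadm. In cell death and selection they included Mcl1, Bid, Bad, Bak1, Bmf, Birc5, Cflar, Trp53inp1, Gtse1, Ccr9, Bcl3, Kit, Lyl1, Psmb9 and Erap1. Among the 39 were Mthfd2, Cct5, Slc38a9, Cs, Srsf2, Xrn2, Clock, Ciart, Psmb9, Erap1, Bmf, Bcl3, Kit and Lyl1. The males-only fit had 24 ribosome assembly and 2 chaperonin genes called higher.

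A second pattern was that of replicate 4. Il7r, the interleukin 7 receptor that thymocytes carry before and after the double-positive stage, was at 2.50, 3.66, 3.38, 16.8 and 2.36 CPM in knockout-labelled replicates 1 to 5 and at 0.876 to 3.94 CPM in controls. Without replicate 4 its log2 fold change of 1.70 (SE 0.58) became 0.77 (adjusted p = 0.158), and its call was also lost without knockout replicate 2 or any 1 of control replicates 2 to 6. Ptpn13, a large tyrosine phosphatase, was at 12.4, 7.66, 8.47, 31.5 and 8.38 CPM (1.53, SE 0.39; 0.94 without replicate 4), and Arsi, a sulfatase, at 2.42, 3.36, 1.80, 8.49 and 2.27 CPM (1.62, SE 0.45). In each of the 3, replicate 4 was the highest of the 11 libraries.

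Marker levels of other cell types varied widely between lists. Of 14 tested B cell markers, the 4 that rose were H2-Aa, H2-Ab1, H2-Eb1 and Cd74, and the 2 that fell were Cd79b (-0.59, SE 0.19) and Ms4a1 (-0.71, SE 0.24). Cd79b was at 2.18 to 3.86 CPM in controls and 1.39 to 1.96 CPM in knockout-labelled libraries, without overlap. Both calls were lost when single libraries were left out, that of Cd79b without control replicate 2, 3 or 4 or knockout replicate 1 or 4 (adjusted p 0.0529 to 0.167) and that of Ms4a1 without control replicate 1 or 2 or knockout replicate 1, 2 or 4 (0.0602 to 0.0973). The summed level of the list was 396.1 to 464.8 CPM in controls and 364.1 to 498.4 CPM in the knockout-labelled group. Among 10 tested dendritic cell markers 1 was called higher and 0 lower, with a median log2 fold change of 0.79. The number called higher was 5 without knockout replicate 4 or 5, 2 without control replicate 1 and 0 without knockout replicate 1. For dendritic cell markers the sums were 13.7 to 45.4 and 20.6 to 35.6 CPM, for macrophages and monocytes 12.8 to 21.6 and 11.2 to 19.9 CPM, for thymic epithelium 26.6 to 35.1 and 32.8 to 42.7 CPM, for erythroid cells 7.48 to 131.1 and 5.39 to 62.8 CPM, for stroma and endothelium 203.0 to 223.8 and 211.1 to 232.7 CPM, and for NK, innate lymphoid and gamma-delta cells 534.7 to 732.7 and 712.6 to 772.8 CPM. Granulocyte markers summed to under 1 CPM in all 11 libraries, with Elane, Ly6g and Retnlg at 0, and erythroid Slc4a1 was at 0 too. The part of such cells in the results was not tested. In sorted bulk RNA, more cells of a type and more RNA per cell cannot be told apart.

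Genes of the Y chromosome, which males alone carry, were lower in knockout-labelled males. Ddx3y, an RNA helicase (chromosome Y, 1260771 to 1286629), was at 226.3, 227.5 and 239.1 CPM in the 3 control males and at 152.4, 146.1, 151.6 and 165.3 CPM in knockout-labelled males (replicates 2 to 5). Uty, a histone demethylase homologue, was at 128.2 to 137.0 and 72.8 to 89.7 CPM, and Eif2s3y, a translation initiation subunit, at 143.8 to 154.7 and 101.7 to 123.2 CPM. For each of the 3 genes the groups do not overlap (exact two-sided permutation p = 0.0286, the smallest that 35 permutations of 3 against 4 males can give). Kdm5d, a histone demethylase, was at 129.3 to 144.8 and 110.7 to 130.8 CPM (exact permutation p = 0.0857). In transgenic males, of the same identifier series as the knockout-labelled mice, Ddx3y was at 135.3 to 162.7, Uty at 63.7 to 84.8 and Eif2s3y at 116.6 to 127.9 CPM. The low level was thus shared by both groups of that series. The female libraries had at most 4.19 CPM of any of the 4.

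**Figure D5:**
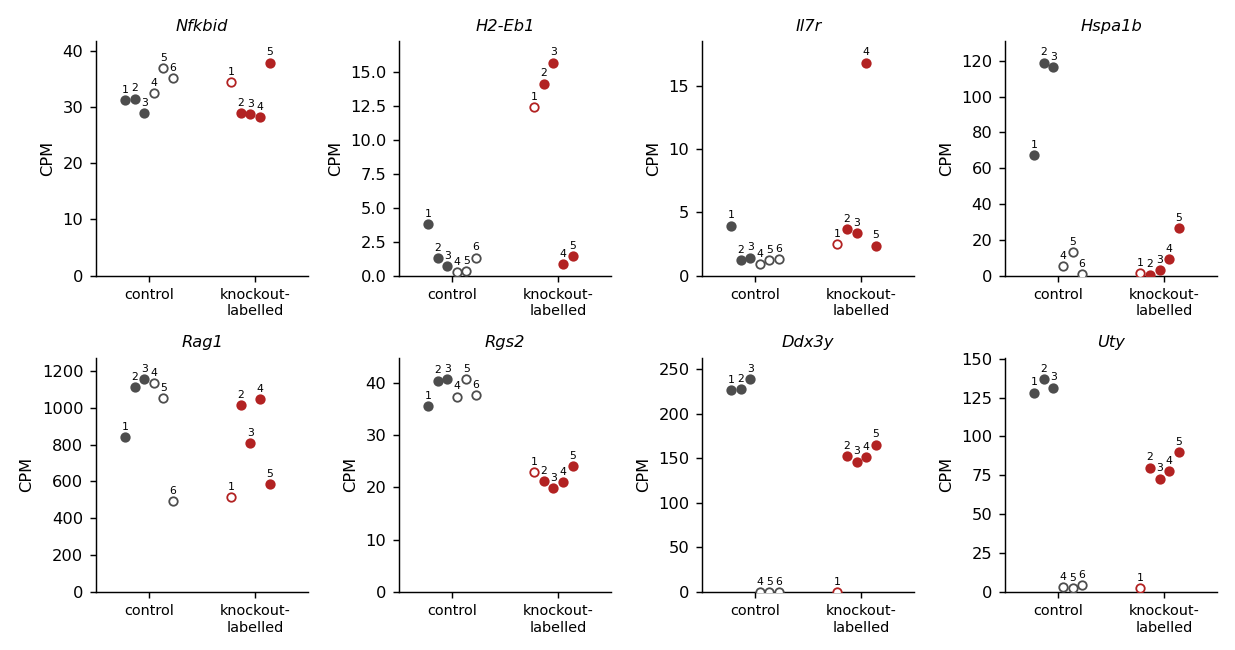
Level (CPM) of 8 genes in each control (grey) and knockout-labelled (red) library, with the replicate number above each point, filled points for males and open points for females. Nfkbid overlaps between groups, Rgs2 separates them in every library, H2-Eb1 is high in knockout-labelled replicates 1 to 3, Il7r in replicate 4, Hspa1b in male controls, and Ddx3y and Uty are lower in knockout-labelled than in control males.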

How the data were processed

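RNA of sorted thymocytes (1 library per mouse) was made into stranded libraries, per the labels' protocols. Bowtie 1.0.0, SAMtools 0.1.18, edgeR 3.24.3 and GRCm38 (mm10) are listed in the submitters' processing notes; the sources used here do not name the counting program or say whether it used strand. The deposited files list 46517 gene identifiers per library, each with an expected count (estimated, not always whole) and a TPM; the deposited TPM values were used in no test. The GENCODE annotation of GRCm38 gave types, positions, GC content and lengths, and 46005 identifiers had a symbol.

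The rounded expected counts entered edgeR 4.0.16 (R 4.3.3): filter by group, TMM scaling, robust quasi-likelihood fit with group and sex on all 16 libraries (12 residual degrees of freedom), Benjamini-Hochberg adjustment over 14933 genes, threshold 0.05. "Adjusted p" means this value, and rose, fell or called mean that it was passed. Values in brackets after a gene are log2 fold changes with their standard error (SE). DESeq2 1.42.0 and other settings were alternatives. The fit was checked on simulated counts. Sequences came from RefSeq.

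Named genes were Nfkbid, the 12 largest recurrent and 6 largest other called changes in each direction at a mean of at least 1 CPM (established symbols, not in an earlier account of these data), the 6 smallest p in each direction, and the 3 smallest p of each list; others were named after their values were seen. The members and lists were chosen with earlier results of these data known. Library totals limit the precision of genes near 1 CPM, and p-values judge group differences against the spread between mice inside the groups. That spread does not include any difference between the identifier series. Some genes and 1 gene list are not reported here.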

Additional observations from a re-analysis of the deposited data

Results flagged for a closer look

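Some libraries stood apart from the rest of their own group by Dixon's test, which compares the gap beside the highest or lowest sample with the range of the group. It marked 27 of 362 pairs of a named gene and a group, and chance alone marks about 1 in 20. All values are CPM, and no cause was tested.

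Knockout-labelled replicate 4 was marked 11 times. It was the highest library of its group for Bcat1 (18.83), Il7r (16.82), Psmb2 (75.79), Mrpl54 (22.9), Pdcd1 (32.16), Calr (427.3), Cct7 (254.3), Drosha (92.07), Apex1 (39.69) and Aen (38.44), and the lowest male of it for Eif2s3y (101.7). Control replicate 6 was marked 8 times. It was the highest control for Junb (190.9), Dusp1 (73.16), Ptpn13 (8.607), Mrpl28 (23.01) and Bak1 (81.71), and the lowest for Rag1 (492.5), Dntt (496.8) and Acadm (55.73). Control replicate 1 was the highest control for Il7r (3.943), Wars (41.57) and Nop2 (24.69) and the lowest for Bambi (0.7273) and Zc3h7a (194.6). Knockout-labelled replicate 3 was the highest of its group for Idh3g (79.46) and Prdx3 (47.37), and replicate 1 the lowest for Plxnd1 (372.5).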

How the results depend on the processing

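Of 182 named genes, 177 were called, and 99 of these were called under every one of up to 22 alternatives; of all gene values, 3699 kept their direction and side of the threshold, 283 were no longer past it and 19 turned direction. The number called was 4334 with DESeq2, 3986 with RLE size factors, 3755 with library totals, 3195 without a filter and 3457 from the 11 libraries alone. In males alone 1486 genes were called higher. Without control replicate 1 and knockout replicates 1 to 3, 1438 were called, 1046 higher and 392 lower. Leaving out 1 library gave 2863 to 4253 called genes, 1608 (without control replicate 2) to 2255 higher, 1111 to 1998 lower and 1812 to 2701 recurrent. With a gap of 1.2-fold required between the groups, 121 recurrent genes were left of 1971. With the GC content and length correction 1774 genes were recurrent, and 1138 of them were among the 1971.

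Nfkbid, not called in any setting run, had a log2 fold change of -0.01 in the 11 libraries alone, -0.05 without the sex term, -0.04 with the GC content and length correction and -0.05 to 0.14 when 1 library was left out, lowest without knockout replicate 5. It was 0.29 (adjusted p = 0.48) without the class II-high libraries. Without the sex term Ddx3y was at 0.08, Eif2s3y at 0.30 and Kdm5d at 0.42. Nr4a1 was at 0.10 in males, 0.25 without the class II-high libraries and, leaving out 1 library, at 0.03, 0.03, 0.09 and 0.01. Egr1 was at -0.09 in males, -0.01 with the replicate block, -0.01 with the GC correction, 0.00 without the class II-high libraries and -0.05 to 0.07 leaving out 1 library (-0.01 without control replicate 6 and -0.05 without knockout replicate 1 or 5). Cd69 was at 0.00 with the GC correction. Without the class II-high libraries Wdfy4 was at -0.32 and Mpeg1 at -1.21. The causes were not tested.

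The replicate numbers share only a number: deviations of same-numbered libraries correlated at -0.42, 0.12, 0.32, -0.21 and -0.14, and 1 of 5 correlated best with its own number. With the replicate block 4129 genes were called and 1906 were recurrent.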
